A study of Homo sapiens with 2 samples.

Results

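Long uninterrupted runs of A in the human genome held few of the positions that MNase-seq placed in ARPE-19 cells, and runs of 25 or more bases had fewer still than runs of 12 to 14. The runs described are stretches of 12 to 40 identical A bases, or T bases, which are A on the other strand, on chromosomes 1 to 22 of hg38. A run was kept when it lay over 2 kb from every GENCODE v44 transcript start and over 500 bp from any other such run. These rules kept 393470 of 638298 runs (61.6%), removing 93756 near a start site and 151072 near another run. Each run was read in the direction in which it is A, so that the 5′ side is the DNA before the A run on that strand. The choice of runs used the sequence and the gene annotation, and no measured value.

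The positions came from MNase-seq of ARPE-19 cells, a widely used human line derived from the retina's pigment epithelium, in interphase with no treatment or genetic change named in the labels. Micrococcal nuclease (MNase) digests the DNA between nucleosomes, and the protected fragments, here of about 150 bp cut from a gel after 5 min of digestion at 37 °C, are sequenced. The labels give 2 batches of this 1 group. Each deposited position is a single base, which is taken here as the centre of a nucleosome. The sources used here do not state what it marks, and every distance, band and gap width below rests on that reading. The single deposited list names neither batch, so there are no replicate values and the spread between batches is not known.

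A nucleosome is DNA wrapped tightly around a core of histone proteins. Runs of A and T form a stiff, straight double helix that is costly to bend, and they are known in yeast promoters as sequences that keep nucleosomes away. In the human genome many A runs are the tails of Alu elements, short interspersed repeats made of a left and a right arm joined by an A-rich stretch and ending in an A run. MNase also cuts A and T rich DNA more readily than other DNA. Digested naked DNA was not used here, so an absence of nucleosomes and a loss of fragments to the enzyme cannot be told apart.

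The list held 2558490 distinct positions on the autosomes, or 0.928 per kb. With less than 1 position per kb, most nucleosomes have no listed position, and a density below refers to listed positions per kb of sequence, not to occupancy. Chromosomes 9 and 15 had the highest densities 500 to 1000 bp from the runs, 1.3 and 1.24 per kb, against 0.785 to 1.11 on the other 20 autosomes. In place of replicates, each comparison was made within each of the 22 autosomes and given as the mean log2 ratio ± SD over them. The p-values are from two-sided sign-flip permutation tests over the chromosomes, which are parts of 1 genome and not biological replicates.

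The sequence before the run comes first, because most of the runs share words of it. Of the 393470 runs, 255867 (65%) had in their 5′ 300 bp at least 3 of the 100 most frequent 12-base words found there, and 237261 (60.3%) had at least 10. On the 3′ side 12.3% of the runs had at least 3 of these words, against 8.05% of all 300 bp windows of the autosomes read on the plus strand only. Counting words on either strand, the share of all windows was 15.8%. The most frequent word, CCTGTAATCCCA, was on the 5′ side of 39.8% of the runs and, on either strand, in 6.62% of all windows. This word is generally known from Alu elements, although no repeat annotation was used. The 255867 runs are called Alu-type runs below, and the 133281 runs (33.9%) with none of the words are called runs without the Alu words. The other 4322 (1.1%) had 1 or 2 words and are in the values over all runs only. The share of Alu-type runs differed with length: it was 50.3% of the 152656 runs of 12 to 14 bases, 69.9% of the 141079 runs of 15 to 19, and 80.6%, 81.4% and 79.5% of the 63893, 26890 and 8952 runs of 20 to 24, 25 to 29 and 30 to 40 bases.

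One run is printed with 30 bases on either side and the run in capitals, as an example that is not typical in its number of positions. By the rule given with the methods, it is the run of 12 to 14 bases with the most positions within 100 to 1000 bp after positions closer than 100 bp were merged, so the number of positions around it is what chose it.
THSD4 intron, chr15:71466315-71466388, plus strand: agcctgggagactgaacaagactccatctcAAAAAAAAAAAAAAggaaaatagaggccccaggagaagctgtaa
The run is 14 bases long, is of the Alu type and lies at chr15:71466345-71466358 in an intron of THSD4, a gene for an extracellular matrix protein. It had no position within 50 bp of its midpoint. Within 1000 bp it had 11 positions, at −953, −788, −613, −426, −261 and −86 bp on the 5′ side and at 119, 319, 474, 664 and 782 bp on the 3′ side. The nearest was thus 86 bp away. Over all runs the number of positions within 1000 bp had a median of 1 and a mean of 1.82.

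Over all 393470 runs, 6121 positions lay within 50 bp of the midpoint, a density of 0.154 per kb, against 0.942 per kb at 500 to 1000 bp. The per-chromosome densities in this central window ran from 0.0948 per kb on chromosome 20 to 0.223 on chromosome 9, and the lowest flanking density was 0.785 per kb, so the ranges did not overlap. The log2 ratio of centre to far flank was −2.67 ± 0.22 (SD, n = 22 chromosomes) and was below 0 on 22 of 22 (permutation p = 1e-05, the smallest that 100000 draws can give; adjusted p = 1.53e-05). The size depends on the width of the window: the ratio was −4.0 ± 0.41 within 25 bp, −1.20 ± 0.11 within 75 bp, and −3.43 ± 0.34 over the run and 30 bp on either side of it. Within 50 bp it was lowest on chromosome 19, at −3.23, and closest to 0 on chromosome 4, at −2.22.

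**Figure D1:**
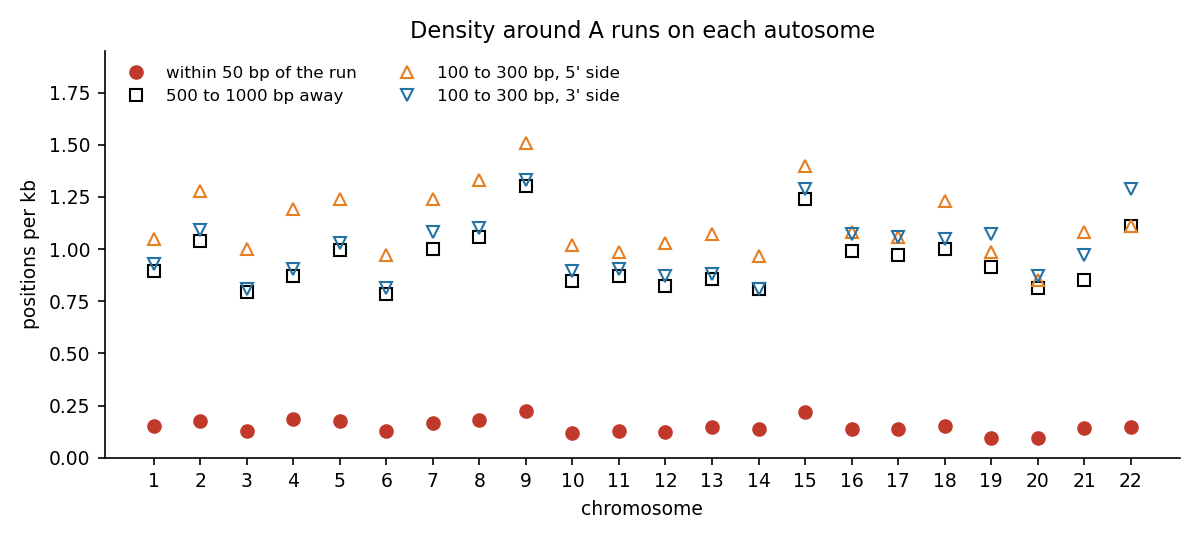
Positions per kb (vertical axis) on each autosome (horizontal axis) within 50 bp of the run, 100 to 300 bp away on each side and 500 to 1000 bp away; each point is 1 chromosome. Densities within 50 bp lie between 0.0948 and 0.223 per kb, below every flanking density.

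Seen run by run, 98.5% of the runs had no position within 50 bp and 6006 had at least 1 (1.53%, 95% Wilson interval 1.49 to 1.57, counting error only). Around the point 750 bp to the 3′ side of the same runs, a window of the same width held a position in 9.21% of cases, and 750 bp to the 5′ side in 8.24%. A position lay inside the run itself at 194 runs (0.0493%). The nearest position was at a median distance of 448 bp (quartiles 214 and 988 bp), and 24.6% of the runs had none within 1000 bp.

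A run of A lowers the GC content around it, and positions in this list depend on GC content. The density expected from the GC content of the surrounding 200 bp, taken from all autosomal bases, was therefore set beside the raw density. Relative to that expectation the centre against the far flank was −2.76 ± 0.18 (SD, n = 22 chromosomes; adjusted p = 1.53e-05, permutation), over all runs no closer to 0 than the raw value. The 2 kinds of run moved in opposite directions. At runs without the Alu words the value went from −2.43 ± 0.22 raw to −1.65 ± 0.23, closer to 0. At Alu-type runs it went from −2.79 ± 0.22 to −3.12 ± 0.15. Reads can also be lost where sequence is repeated. Of the bases within 50 bp of the midpoint, 97.9% were at a place where at least 1 end of a 150 bp fragment is unique in the reference, against 96.6% of the far-flank bases.

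The depletion deepened with the length of the run. The density within 50 bp, as a share of that in the far flank, was 0.217 for runs of 12 to 14 bases, 0.176 for 15 to 19, 0.0773 for 20 to 24, 0.0463 for 25 to 29 and 0.0397 for 30 to 40. By single lengths it went from 0.222 at 12 bases (95% Poisson interval of the count 0.21 to 0.235) to 0.102 at 20 bases (0.0867 to 0.119) and 0.0571 at 25 bases (0.0417 to 0.0764). From 28 bases on, fewer than 10 positions were counted at each length and the intervals overlapped, so no further order can be read. Runs of 25 or more bases differed from runs of 12 to 14 by −2.26 ± 0.88 on the log2 scale (SD, n = 22; lower on 21 of 22; adjusted p = 1.53e-05, permutation), and by −2.37 ± 0.83 after the GC expectation.

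**Figure D2:**
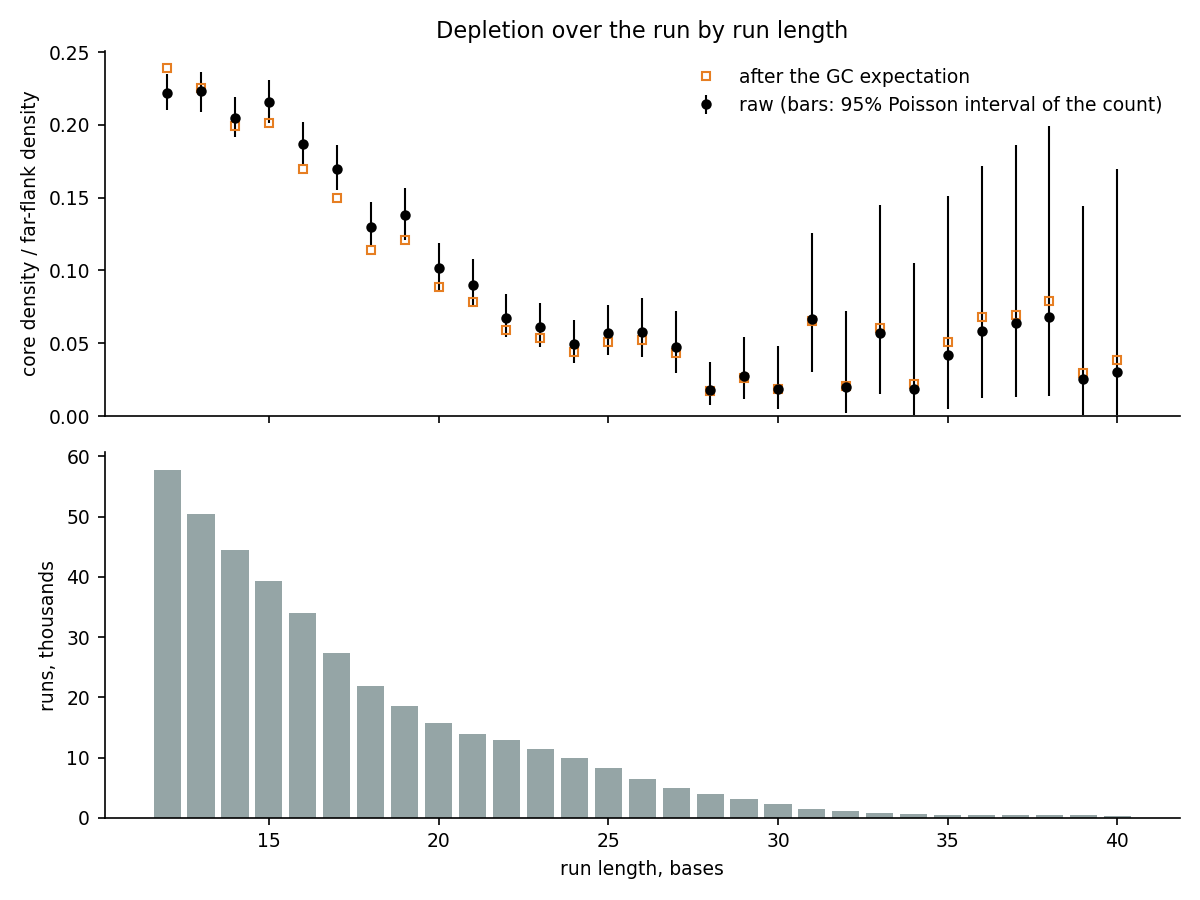
Top: density within 50 bp of the run divided by that 500 to 1000 bp away, against run length in bases, raw (circles, with the 95% Poisson interval of the count) and after the GC expectation (squares). Bottom: number of runs of each length, the axis in units of 1000 runs; the ratio goes from 0.222 at 12 bases to 0.0571 at 25.

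The depletion did not begin at 12 bases. Shorter runs were chosen by the same distances, but runs of 8 to 9 bases were kept from every A or T run of 8 or more bases. Runs of 10 to 11 were kept from every run of 10 or more. Runs of 8 to 9 A bases had 0.326 of their far-flank density within 50 bp, and runs of 10 to 11 had 0.255. After the GC expectation these shares were 0.463 and 0.314, against 0.222 for runs of 12 to 14. Runs of 12 to 14 bases were lower than runs of 10 to 11 by −0.26 ± 0.23 (log2, SD, n = 22; lower on 20 of 22; adjusted p = 2.89e-05, permutation). After the GC expectation the difference was −0.53 ± 0.23, lower on 22 of 22. With a central window of 75 bp in place of 50 bp the raw difference was 0.064, with adjusted p = 0.0545 in the permutation test. The runs of 10 to 11 bases were not divided by the Alu words, so the part of make-up in these differences was not tested. At 12 to 14 bases the raw shares were 0.215 at Alu-type runs and 0.218 at runs without the words, both below 0.255. After the GC expectation they were 0.168 and 0.375, the latter above the 0.314 of runs of 10 to 11.

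Other simple sequences of 12 to 40 bases differed among themselves. They were chosen by the same distances and also lay over 500 bp from every A or T run of 12 or more bases. Lengths within the range were not matched between the sets, so a difference in length was not taken into account. At 70269 CA repeats of 12 to 40 bases the centre was above the far flank, at 1.36 times its density, with 1.67 positions per kb in the 10 bp before the midpoint. A runs were lower than CA repeats by −3.06 ± 0.14 (log2, SD, n = 22; lower on 22 of 22; adjusted p = 1.53e-05, permutation), and by −4.65 and −1.22 with windows of 25 and 75 bp. At 32468 repeats of alternating A and T the centre had 0.0327 of the far-flank density, lower than at A runs. The A runs stood 2.23 ± 0.69 above them (higher on 22 of 22; adjusted p = 1.53e-05, permutation) and 0.72 ± 0.62 above them after the GC expectation. With windows of 25 and 75 bp the raw difference was 0.98 and 3.46. These values pool both kinds of A run. After the GC expectation the central share was 0.118 at Alu-type runs, 0.331 at runs without the Alu words and 0.0898 at the alternating repeats. The alternating repeats had 2.31 and 2.04 positions per kb in the bins 90 to 100 bp to either side. The profile over all A runs had no such symmetrical pair. Long A runs without the Alu words did have a maximum on each side at a like distance, and at 20 to 24 bases these stood at 1.53 and 1.47 per kb, both 100 to 110 bp from the edges of the run.

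**Figure D3:**
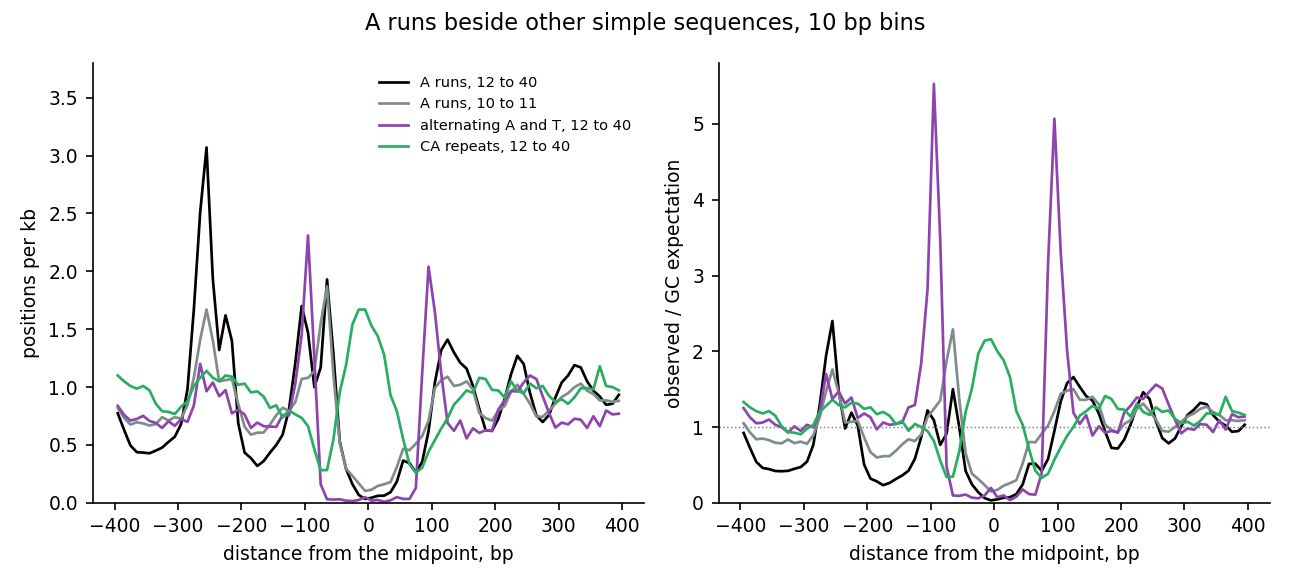
Positions per kb (left) and the ratio of observed to GC-expected positions (right) in 10 bp bins, against distance from the midpoint in bp, for A runs of 12 to 40 and 10 to 11 bases, alternating A and T repeats and CA repeats. CA repeats have their highest bin next to the midpoint, at 1.67 per kb, where the A runs are lowest, at 0.0328.

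The flanks of the A runs differed between the sides. At 100 to 300 bp on the 5′ side the density was 1.13 per kb, above the far flank by 0.24 ± 0.11 (log2, SD, n = 22; higher on 21 of 22; adjusted p = 1.53e-05, permutation). After the GC expectation the 5′ side was instead below it, by −0.27 ± 0.054, on 22 of 22 chromosomes. On the 3′ side the density was 0.989 per kb, above the far flank by 0.084 ± 0.06, and by 0.20 ± 0.052 after the GC expectation (adjusted p = 1.53e-05 for both, permutation). The raw 5′ excess over the 3′ side, 0.16 ± 0.15 (higher on 19 of 22; adjusted p = 0.00026, permutation), likewise became −0.46 ± 0.048 after the GC expectation. The GC content was 47.1% in the 5′ window and 39.7% in the 3′ window. Over all runs, the direction of the asymmetry thus depends on whether GC content is taken into account. The runs without the Alu words did not have this change of direction. Their 5′ against their 3′ flank was −0.11 raw and −0.13 after the GC expectation. Against the far flank their 5′ flank stood at 0.017 ± 0.065, and at 0.083 ± 0.075 after the GC expectation, where it was lower on 3 of 22 chromosomes. The 5′ flank of the Alu-type runs stood at 0.34 ± 0.17 and −0.37 ± 0.076. On the 3′ side both kinds were above the far flank on average, by 0.065 ± 0.065 for the Alu-type runs and 0.12 ± 0.071 for the others.

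The 5′ side of the Alu-type runs had a sharply banded profile. The highest density was 3.42 per kb (running mean over 3 bins of 10 bp) at −260 bp. Sought on each chromosome only within 50 bp of that place, this maximum lay at −261 ± 2.94 bp over the 22 chromosomes (mean height 3.36 ± 0.468). Between −290 and −220 bp there were 2.43 positions per kb, and between −120 and −50 bp 1.75 per kb, both above the far flank on 22 of 22 chromosomes. Between them, at −190 to −150 bp, the density was 0.181 per kb, below the far flank on 22 of 22 chromosomes, and its highest chromosome, at 0.267, was below the lowest of either neighbouring band, 1.71 and 1.19. Another gap, of 0.197 per kb, lay at −350 to −330 bp. In an Alu element that ends at the run, the bands would lie on the left and right arms, the inner gap near the A-rich stretch between them and the outer gap just before the element. The elements themselves were not annotated here.

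The GC content was 56.2% and 57% in the bands and 36.6% in the gap between them. Relative to the GC expectation the outer band stood at 1.53, the inner band at 1.02 and the gap between them at 0.108. Repeated sequence was most frequent here: 85% of the bases in the gap and 89.6% in the inner band had a unique fragment end, against 96.8% in the outer band. Counted on those bases alone, the densities were 2.49, 0.204 and 1.88 per kb in the outer band, the gap and the inner band. The bands and gaps were placed after the profile was seen and are given without a test. The runs without the Alu words had 0.826, 0.744 and 0.673 positions per kb in the places of the outer band, the gap and the inner band. Relative to the GC expectation these were 1.04, 0.944 and 1.16, the last above the 1.02 of the Alu-type inner band.

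**Figure D4:**
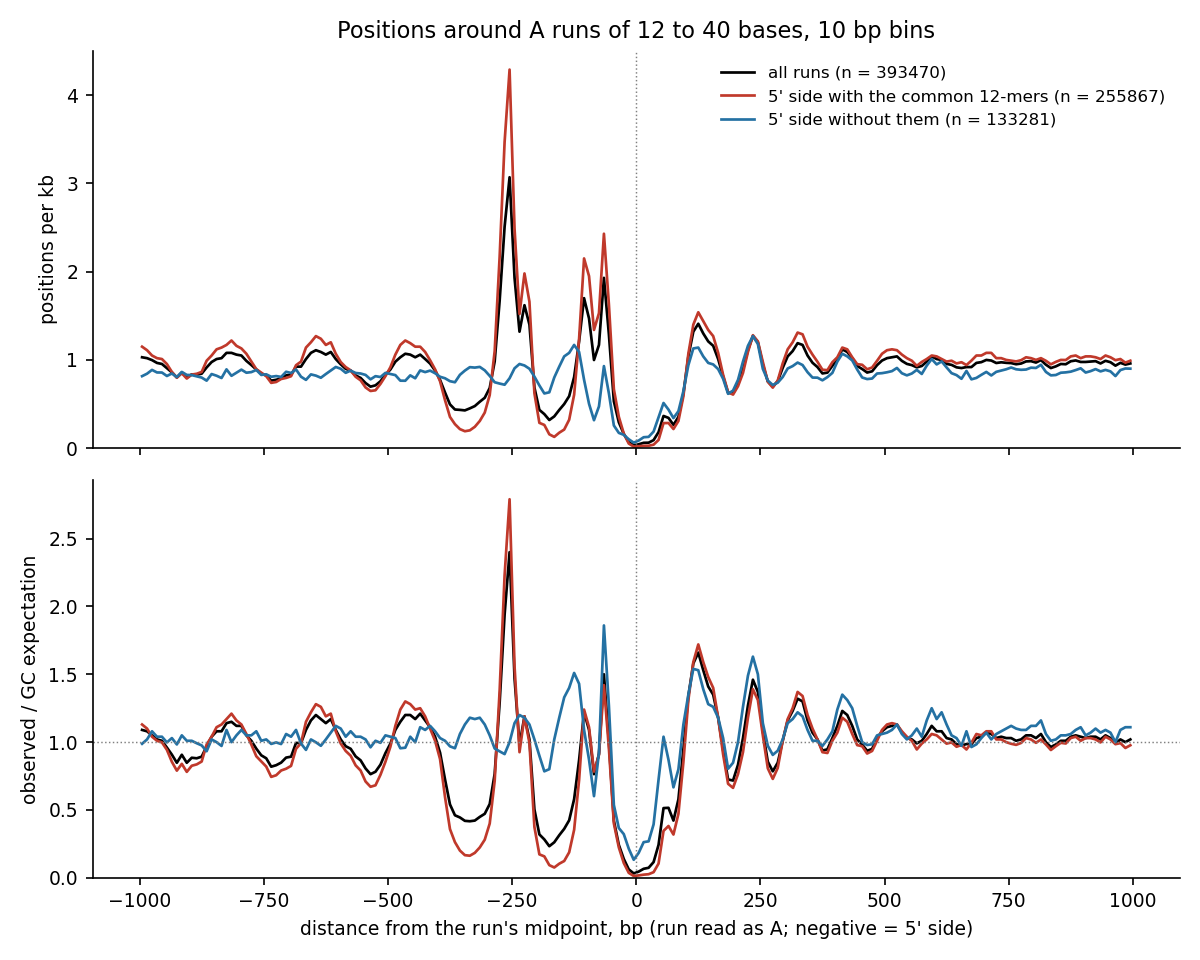
Positions per kb (top) and ratio of observed to GC-expected positions (bottom) in 10 bp bins against distance from the run's midpoint in bp, for all 393470 runs, the 255867 Alu-type runs (common 12-mers on the 5′ side) and the 133281 runs without the words. The Alu-type profile has its highest maximum at −260 bp; all 3 curves are lowest next to the midpoint.

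Further out, both kinds of run had maxima at regular steps. On the 5′ side of the Alu-type runs, beyond the bands, the maxima at −470, −650 and −820 bp were 179 ± 10.1 bp apart (SD, n = 22 chromosomes). On their 3′ side the maxima at 120, 320, 510 and 700 bp were 193 ± 5.73 bp apart, and a second series, at 230 and 420 bp, 183 ± 9.45 bp apart, lay between them. The runs without the Alu words had 3′ maxima at 120 and 320 bp, 200 ± 17 bp apart, and at 230, 420, 600 and 800 bp, 187 ± 11.9 bp apart. The first 3′ maximum was thus at 120 bp for both kinds of run, at 123 ± 4.77 and 120 ± 8.44 bp over the chromosomes, with densities of 1.46 and 1.1 per kb. The series of maxima were put together after the profiles were seen, and no test is given. On each chromosome a maximum was sought only near its pooled place, so the SDs of places and spacings are limited by that search.

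The Alu-type runs were more depleted than the others, by −0.36 ± 0.22 (log2, SD, n = 22; lower on 21 of 22; adjusted p = 1.53e-05, permutation) and by −1.47 ± 0.22 after the GC expectation. Their centre had 0.149 of the far-flank density, against 0.192 for the runs without the words. The Alu-type runs were also longer, and the raw shares within a length class were 0.215 and 0.218 at 12 to 14 bases, 0.168 and 0.194 at 15 to 19, 0.0722 and 0.1 at 20 to 24, 0.0445 and 0.0539 at 25 to 29, and 0.0269 and 0.093 at 30 to 40. The values of the last class rest on 18 and 14 positions. At 12 to 14 bases the shares were 0.168 and 0.375 after the GC expectation. With a central window of 75 bp the raw difference was 0.41, higher at the Alu-type runs on 22 of 22 chromosomes. That window takes in the maximum at −70 bp, which both kinds of run had at unlike heights. It was 1.86 per kb at the Alu-type runs and 0.675 at the others, the latter below their far flank of 0.857. Relative to the GC expectation the order was the opposite. The bin from −70 to −60 bp then stood at 1.42 at the Alu-type runs and 1.86 at the others, against 0.988 and 1.05 in their far flanks. The 5′ side against the 3′ side was 0.28 at the Alu-type runs and −0.11 at the others, so the 5′ excess was found at the Alu-type runs and the others had the opposite direction. The difference was 0.39 ± 0.23 (higher on 21 of 22; adjusted p = 1.53e-05, permutation), and −0.43 ± 0.10 after the GC expectation.

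The place of the nearest positions on the 5′ side moved with the length of the run. At Alu-type runs of 12 to 14 bases the density was 2.96 per kb at 40 to 70 bp from the 5′ edge of the run and 1.84 at 80 to 110 bp. At 15 to 19 bases the values were 1.92 and 1.76, at 20 to 24 bases 0.682 and 1.94, at 25 to 29 bases 0.297 and 2.09, and at 30 to 40 bases 0.122 and 2.74 per kb. The nearer window was thus the higher for short runs and the lower for long ones. The log2 ratio of nearer to farther window was 0.68 ± 0.18 at 12 to 14 bases, above 0 on 22 of 22 chromosomes, and −1.52 ± 0.31, −2.85 ± 0.72 and −4.07 ± 1.20 in the 3 longest classes, above 0 on none of 22 in each.

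Distances here start at the edge of the run. The outer band had its highest bin at 240 to 250 bp from the edge in every length class. At runs without the Alu words the densities were 0.745 and 0.666 per kb at 12 to 14 bases, where the log2 ratio was 0.091 ± 0.34 and the nearer window was the higher on 15 of 22 chromosomes. At 15 to 19 bases they were 0.679 and 0.741, the opposite order to the Alu-type runs of that length. In the 3 longest classes the nearer window was the lower on every chromosome, and at 30 to 40 bases it held 0.116 per kb, from 6 positions, against 1.64. These windows were chosen after the profiles were seen, and no test is given.

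**Figure D5:**
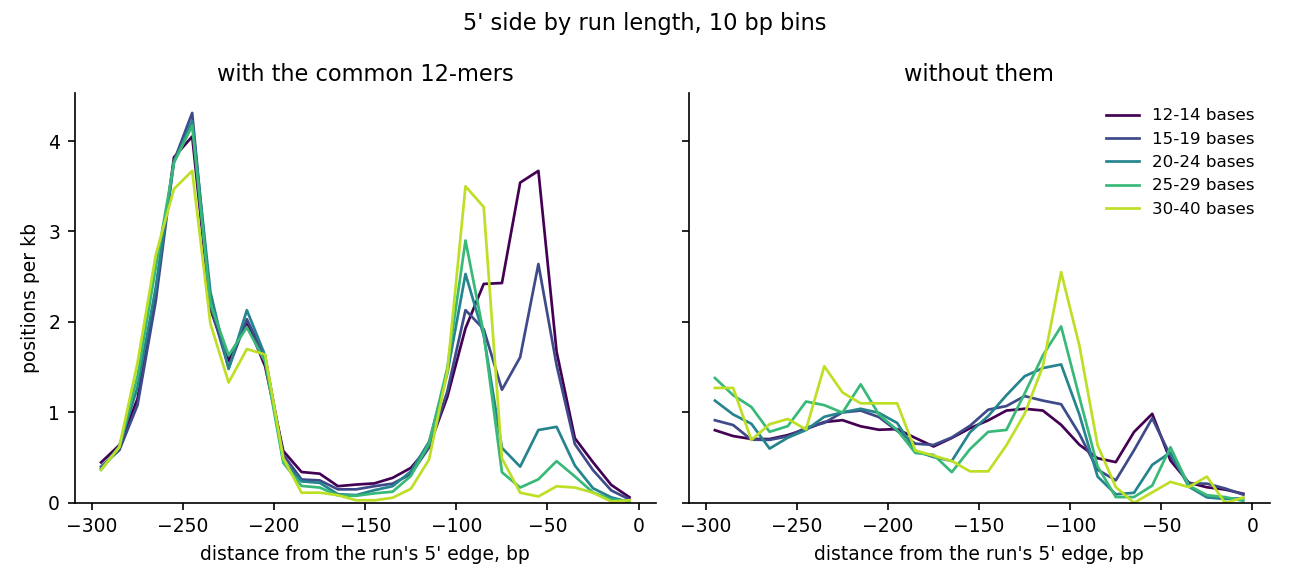
Positions per kb in 10 bp bins against distance from the 5′ edge of the run in bp, by run length, for Alu-type runs (left) and runs without the Alu words (right). In runs of 12 to 14 bases of the Alu type the maximum next to the run is at 50 to 60 bp (3.67 per kb), in runs of 30 to 40 bases at 90 to 100 bp (3.5 per kb).

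The gap over the run, in raw density, was wider at longer runs. Over all runs, the stretch around the midpoint with a density below 50% of the far flank was 120 bp wide for runs of 12 to 14 bases, 130 bp for 15 to 19, 150 bp for both 20 to 24 and 25 to 29, and 190 bp for 30 to 40. In the 15 to 19 class it ran from −40 to 90 bp, farther on the 3′ side, and at the Alu-type runs of that class it had the same limits. At the runs without the Alu words the stretch was 100 bp wide, from −50 to 50 bp, in each of the 12 to 14, 15 to 19 and 20 to 24 classes. It was then 140 bp at 25 to 29 and 200 bp at 30 to 40 bases. The last width rests on 1726 runs with 14 positions within 50 bp of the midpoint. After the GC expectation the widths at runs without the Alu words were 80, 90, 90, 100 and 90 bp, from the shortest class to the longest. Over all runs they were then 90, 110, 140, 180 and 180 bp. The most frequent base after the run was G at the first place and A at each of the next 29, at a median of 36.3% of the runs.

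Differences by place relative to genes were small beside those by length. Of the runs, 184945 (47%) lay in introns of protein-coding genes, 146106 (37.1%) were intergenic, 5819 (1.48%) lay in exons of protein-coding genes and 56600 (14.4%) in other genes. Among the intronic runs in genes on a single strand, 78135 (42.9%) read as A on the gene's strand and 103919 read as T. Intronic runs were more depleted than intergenic ones by −0.20 ± 0.26 (log2, SD, n = 22; lower on 17 of 22; adjusted p = 0.00102, permutation), with 0.153 and 0.173 of the far-flank density. This difference was not past the threshold with a central window of 25 bp (−0.18, adjusted p = 0.207, permutation). Sense and antisense runs differed at the centre by 0.058 ± 0.32 (higher on 13 of 22; adjusted p = 0.479, permutation) and between their sides by −0.026 ± 0.13 (adjusted p = 0.368, permutation), neither past the threshold. With the 75 bp window the sense runs were higher at the centre by 0.14, on 20 of 22 chromosomes (adjusted p = 6.67e-05, permutation). Of the sense runs 71% were of the Alu type, against 65% of the antisense runs. Alu-type runs were also higher with that window, and the part of this difference in make-up was not tested.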

How the data were processed

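MNase-seq of ARPE-19 cells in interphase was deposited as 1 list of 1 bp positions without heights or scores. Per the labels' protocols and the submitters' processing notes, reads were aligned with Bowtie2 to hg38; the version, the position caller and its thresholds, and whether the 2 batches were pooled, are not given in the sources used here. All 2634347 deposited positions fell within the hg38 reference sequences. The runs, the length classes and the comparisons were chosen with earlier results of these data known.

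Densities are positions divided by determined bases, in 10 bp bins oriented along the run. The centre is within 50 bp of the midpoint, the near flanks 100 to 300 bp and the far flank 500 to 1000 bp on both sides. The GC expectation is the autosomal density per 2% bin of GC in the surrounding 200 bp. Per-chromosome log2 ratios, with 0.5 added to both counts, were tested by two-sided sign-flip permutation (100000 draws), with Benjamini-Hochberg adjustment over 26 tests (13 comparisons, raw and GC). The p-values of each other setting were adjusted over that setting's own tests. Uniqueness was scored with 50-mers at both ends of 150 bp windows, every 20 bp. Common words were the 100 most frequent 12-mers in the 300 bp before the runs, leaving out words with 1 base at more than 7 places. Maxima needed a prominence of 10% of the far density. On single chromosomes each was sought within 50 bp of its pooled place, or less where another maximum was close, with no prominence needed. The rule for runs to print took, per length class, the run with the most positions 100 to 1000 bp away after merging positions closer than 100 bp, passing over chromosome 8; 1 of the 5 is printed, and the others are not reported here. The code was tested on simulated positions. Python 3.11.15, numpy 2.4.6 and scipy 1.17.1 were used.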

Additional observations from a re-analysis of the deposited data

Results flagged for a closer look

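The list also held 74465 positions on chromosome X and 1388 on unplaced or other sequences outside chromosomes 1 to 22. They were flagged because no comparison above used them. There is no control sample to set them against, and no runs were taken from those sequences.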

How the results depend on the processing

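The 13 comparisons gave 158 values under alternative settings, of which 141 had the direction of the value reported and fell on the same side of the test's threshold. With the GC expectation from 200 bp, 500 bp, or 200 bp on bases with a unique fragment end (the last chosen after seeing the data), the 5′ flank against the far flank was −0.27, −0.048 and −0.19, the 5′ against the 3′ flank −0.46, −0.21 and −0.38, and the difference in that asymmetry between Alu-type and other runs −0.43, −0.12 and −0.38, each reversed from its raw value. The sense minus antisense centre was −0.0098 with the 200 bp GC expectation, −0.021 with distances from the edges of the run, −0.18 with a centre of 25 bp and 0.14 with one of 75 bp. The intron minus intergenic centre was −0.18 with distances from the edges and −0.18 with a centre of 25 bp, both no longer past the threshold. With a centre of 75 bp, runs of 12 to 14 minus 10 to 11 bases was 0.064 and Alu-type minus other runs 0.41. The cause was not tested. Merging positions closer than 100 bp, and leaving out chromosomes 9 and 15, changed no direction and no call. Without the running mean, each of the 24 maxima stayed within 10 bp of its place. No paired analysis was possible because the list does not name the batches. Depth limits runs of 28 bases and longer, with fewer than 10 positions at each length within 50 bp.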
